A study of Rattus norvegicus with 24 samples.

Results

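Gene expression in the nucleus accumbens (NAc) of rats that had METH 2 h before death was compared with that of rats whose METH exposure lay a month back. METH (methamphetamine) is a psychostimulant that releases dopamine and other monoamines. The SM rats were given saline at the first injection and METH (2.5 mg/kg) a month later, 2 h before they were killed. The MS rats were given METH (10 mg/kg) at the first injection and saline a month later, also 2 h before they were killed. The 6 SM and 7 MS arrays make up 13 of the 24 arrays of the series, chosen by the group in their deposited labels. The other arrays are 4 of rats with saline at both injections (SS) and 7 of rats with METH at both (MM, 10 and then 2.5 mg/kg), and serve only to place the levels of named genes. All rats were male Sprague-Dawley animals of 375 ± 25 g at the start. Each group in this comparison had METH once, at doses that differ, so that time since METH and dose cannot be told apart. SM against MS also does not show by itself whether a gene was raised by the recent injection or lowered by the earlier one. Which rat each array came from is not in the labels, and the p-values given here cover the spread among these arrays, which may be technical in part.

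The NAc is the ventral part of the striatum, and most of its neurons are GABAergic medium spiny neurons with dopamine receptors. Dopamine raises cAMP through D1 receptors and lowers it through D2 receptors, which most of these neurons carry in separate populations. Signals of cAMP and calcium act through kinases on transcription factors already present in the nucleus, among them CREB and the serum response factor. These switch on immediate early genes, whose transcripts rise within minutes to a few hours and whose products, such as Fos, Egr and Nr4a proteins, are themselves transcription factors. Phosphatases and clock repressors such as Dusp1 and Per1 are induced with them and limit the signal.

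The arrays were 1-colour Illumina BeadChips, on which the brightness of a probe reports the amount of a transcript. The median deposited intensity of an array was 11.4 to 23 in SM and 12.8 to 16.4 in MS, and 49.3% to 53.0% of probes were detected in SM and 51.5% to 53.7% in MS. The Spearman correlation between these 13 arrays was 0.951 to 0.990. Probes for the medium spiny neuron genes Penk, Ppp1r1b and Adora2a had mean log2 intensities in MS of 12.95, 12.86 and 12.17 and were detected on all 13 arrays. MS sample 3 and SM sample 11 had array weights under 0.5, and counts without them are given below. A detection p under 0.05 on 6 or more of the 13 arrays was reached by 11818 of 22523 probes. They were compared by limma, with Benjamini-Hochberg adjustment. Levels are log2 normalized intensities throughout, and a difference is SM minus MS on that scale, with 1 probe, the brightest, for each gene.

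Immediate early genes led the comparison, all in the direction of higher mRNA levels after recent METH. At an adjusted p under 0.05, 60 probes were higher in SM, which is 0.508% of the probes tested and stands for 48 named genes. Another 22 probes, or 0.186%, were lower in SM and stand for 11 named genes. The differences were mostly modest, with a median size of 0.58 among the probes higher and 0.53 among those lower in SM. The study's own rule, more than 1.8-fold at p under 0.01, was applied here to p before adjustment, a point that the study does not specify. It took in 17 probes in the direction of SM (0.144%) and 7 in that of MS (0.0592%), of which 11 and 5 also had an adjusted p under 0.05. Every SM array lay above every MS array for 49 probes (0.415%) and below for 33 (0.279%). The largest positive differences of the named genes called were those of Nr4a3, Fos, Egr4, Arc, Egr2 and Junb, between 3.23-fold and 2.01-fold. Over all 8262 genes tested the median difference was -0.0041, and 0.581% were higher and 0.133% lower in SM.

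**Figure D1:**
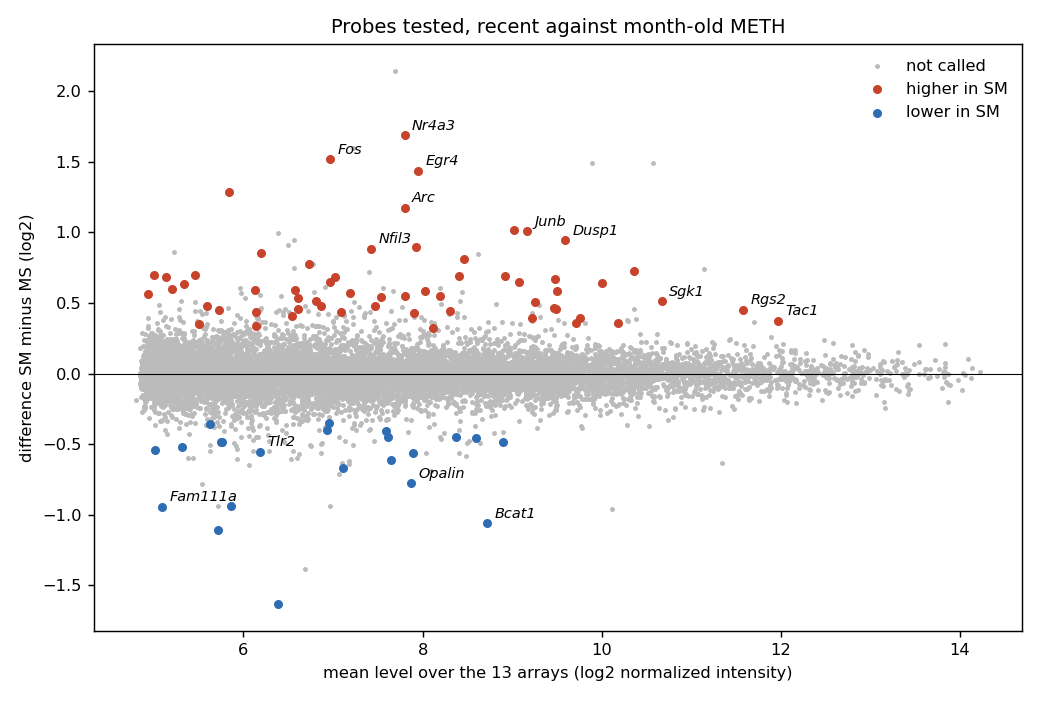
Difference SM minus MS (log2, vertical axis) against the mean level over the 13 arrays (log2 normalized intensity, horizontal axis) for each of 11818 probes tested. Red and blue points are the 60 probes higher and the 22 lower in SM at an adjusted p under 0.05, and grey points did not reach that adjusted p, whether or not they met the 1.8-fold rule. Nr4a3, Fos and Egr4 have the largest positive differences of the probes in red, and the grey point above them, at 2.15, met the 1.8-fold rule alone.

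Nr4a3, an orphan nuclear receptor of the immediate early class, had the largest difference of the genes called. Its level was 8.31 to 9.05 in SM (median 8.74) and 6.70 to 7.82 in MS (median 6.99). No SM array overlapped with an MS array, and the difference of 1.69 (SE 0.16, limma's adjusted p = 3.33e-05) corresponds to 3.23-fold. Fos, a subunit of the AP-1 transcription factor, had levels of 7.43 to 8.34 in SM (median 7.72) and 5.81 to 7.00 in MS (median 6.23). These groups did not overlap either, with a difference of 1.52 (SE 0.17, limma's adjusted p = 2.63e-04), or 2.86-fold. Egr4, a zinc-finger transcription factor, lay between 8.50 and 8.95 in SM (median 8.72) and between 6.91 and 7.86 in MS (median 7.23). It was 2.70-fold higher in SM (difference 1.44, SE 0.13, limma's adjusted p = 1.63e-05), again with no overlap. A two-sided exact permutation test over the 13 samples gave p = 0.00117, 0.00117 and 5.83e-04 for these genes, the last being the smallest that the design allows. The genes were picked for their large differences, and these p-values were not adjusted for that choice. With no overlap between the groups, such p-values restate the separation.

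**Figure D2:**
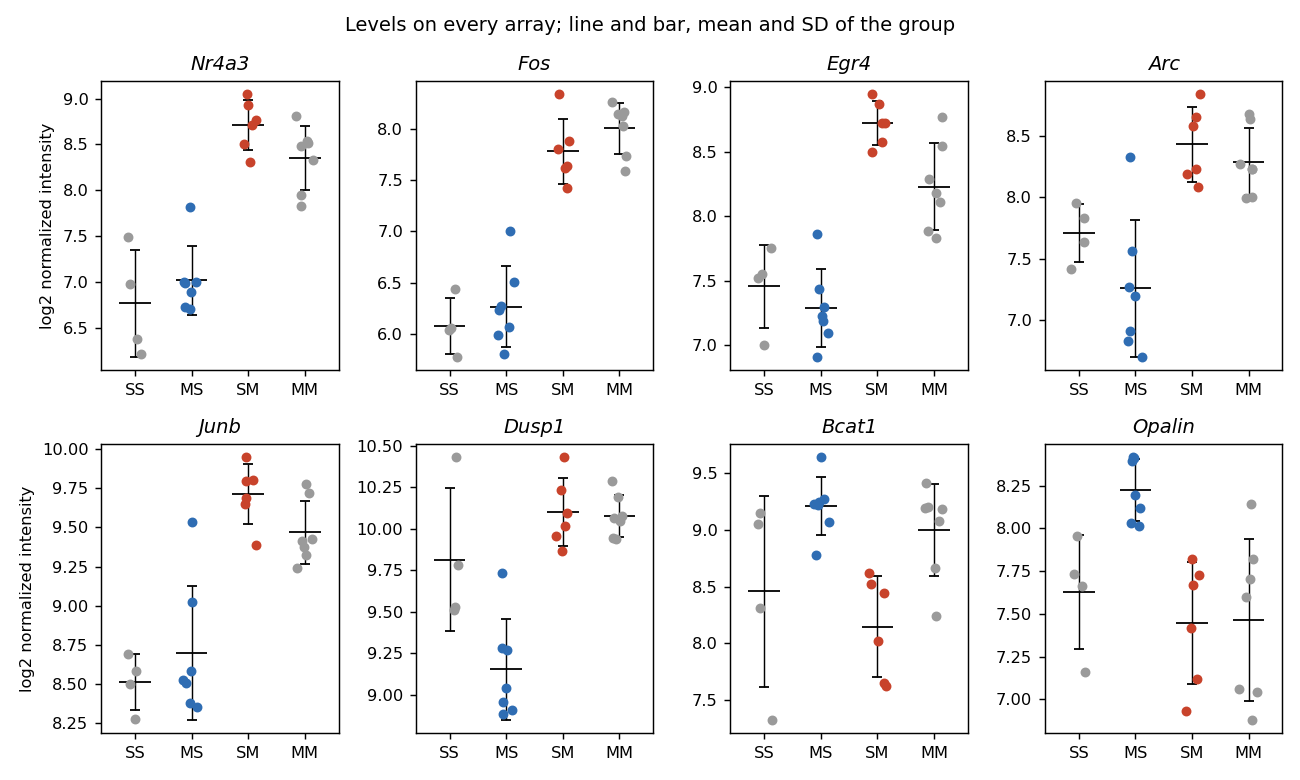
Log2 normalized intensity (vertical axis) of 8 genes on every array, by group (SS 4, MS 7, SM 6 and MM 7 arrays), with the mean and SD of each group in black. The SM arrays (red) lie above all MS arrays (blue) for Nr4a3, Fos, Egr4 and Dusp1, overlap with 1 high MS array for Arc and Junb, and lie below all MS arrays for Bcat1 and Opalin.

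Arc, whose protein works in the postsynaptic cytoskeleton and in the removal of glutamate receptors from synapses, had levels of 8.08 to 8.84 in SM (median 8.41) and 6.70 to 8.33 in MS (median 7.20). The groups overlapped through 1 MS array, and the difference was 1.17 (SE 0.22, limma's adjusted p = 0.0135), or 2.26-fold. Junb, the AP-1 partner of Fos, lay at 9.39 to 9.95 in SM (median 9.74) and at 8.35 to 9.53 in MS (median 8.53), and was 2.01-fold higher in SM (difference 1.01, SE 0.16, limma's adjusted p = 0.00743). The overlapping array was the same in both cases, MS sample 7. This array was the highest of the 7 MS arrays for 28 of the 48 genes higher in SM and for 8 of the 11 immediate early genes among them. Without it, the differences were 1.82 for Nr4a3, 1.64 for Fos, 1.53 for Egr4, 1.35 for Arc and 1.15 for Junb. Sample 7 bears the MS label and was kept.

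Of the 27 listed immediate early transcription factors, 22 had a probe and 18 passed the filter on dim probes. Of these 18, the test called 11, all higher in SM. The members of the list were chosen with earlier results of these data known. All 18 differences were above 0, and their median was 0.69, against -0.0041 over all genes tested, of which 48.5% were above 0. Egr2 and Egr1, zinc-finger factors of the family of Egr4, had differences of 1.02 (SE 0.18, limma's adjusted p = 0.0135) and 0.72 (SE 0.15, limma's adjusted p = 0.0362). Among the genes higher in SM, Egr1 overlapped most, with 1 SM array above every MS array. Nr4a2, another orphan nuclear receptor, was at 5.53 to 6.23 in SM and at 4.97 to 5.39 in MS, a difference of 0.70 (SE 0.11, limma's adjusted p = 0.00693) with no overlap. Npas4, a factor induced by neuronal calcium, was detected on 6 of 6 SM arrays but only on 2 of 7 MS arrays, with a difference of 0.68 (SE 0.11, limma's adjusted p = 0.00858). The size of this difference depended on the processing, from 0.35 to 1.78 over the alternative settings given at the end. Npas4, 1 of the 11 called, passed the filter on dim probes through the SM arrays, so that its p is no separate support. The others called were Nfil3 (0.88), Klf10 (0.85) and Ier5 (0.59), each with no overlap between the groups. A second Ier5 probe had a difference of 0.32 and did not pass (limma's adjusted p = 0.301).

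The remaining 7 immediate early genes did not pass. Klf4 had the largest of these differences at 0.26 (95% interval 0.00 to 0.52), followed by Ier2 at 0.19 (-0.05 to 0.43) and Srf, the serum response factor itself, at 0.16 (-0.03 to 0.34). Myc and Jun stood at 0.11 each, Klf6 at 0.06 and Klf2 at 0.03. The interval for Jun, -0.13 to 0.35, ends well below the difference of Junb. Jun and Junb both encode AP-1 subunits, and only Junb differed beyond the spread between samples, though a test of the difference between those genes was not made. Egr3, Nr4a1, Atf3 and Maff had probes under the filter on dim probes and were not tested.

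The promoters of the genes called were read for the sites to which CREB and the serum response factor bind. The E-box and the AP-1 site were searched too. RefSeq (build GRCr8) gave the bases from 250 before to 50 after the start site for 41 of the 48 genes higher and 10 of the 11 lower in SM. The full cAMP response element, TGACGTCA, was found in 3 of those 41 promoters, namely Dusp1, Ell2 and Sstr2, and in 1.83% of all 33469 promoters and 3.23% of the 6878 of genes tested. Both strands were searched. These 3 are printed because the 3 genes were all higher in SM, with the element in capitals. They lie at chr10:17184603-17184902, plus strand (Dusp1), at chr2:6921602-6921901, plus strand (Ell2) and at chr10:99163103-99163402, plus strand (Sstr2).
Dusp1: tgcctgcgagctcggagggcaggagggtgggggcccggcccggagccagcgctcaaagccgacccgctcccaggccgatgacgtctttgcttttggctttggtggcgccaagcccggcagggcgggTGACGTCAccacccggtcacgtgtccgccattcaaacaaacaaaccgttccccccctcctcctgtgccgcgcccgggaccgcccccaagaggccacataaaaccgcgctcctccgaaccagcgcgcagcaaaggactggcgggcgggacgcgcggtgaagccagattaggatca
Ell2: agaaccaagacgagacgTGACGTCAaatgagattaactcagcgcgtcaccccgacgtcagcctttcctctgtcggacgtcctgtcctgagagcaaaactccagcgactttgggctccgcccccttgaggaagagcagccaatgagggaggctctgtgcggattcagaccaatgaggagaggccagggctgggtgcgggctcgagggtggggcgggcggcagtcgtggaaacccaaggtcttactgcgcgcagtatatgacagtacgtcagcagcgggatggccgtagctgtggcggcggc
Sstr2: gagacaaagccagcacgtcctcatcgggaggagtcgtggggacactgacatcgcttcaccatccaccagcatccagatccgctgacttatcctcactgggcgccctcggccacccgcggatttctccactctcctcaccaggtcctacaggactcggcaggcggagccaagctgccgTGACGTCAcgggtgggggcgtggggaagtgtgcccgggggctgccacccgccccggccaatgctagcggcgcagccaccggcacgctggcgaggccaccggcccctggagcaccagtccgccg
The element began at base -124 of Dusp1, -233 of Ell2 and -73 of Sstr2, counted from the start site. Its core, TGACG, which every full element also holds, stood in 24 of the 41 promoters of genes higher in SM (58.5%) and in 1 of the 10 of genes lower in SM, against 32.1% of the promoters of genes tested. The E-box, CACGTG, stood in 8 of the 41 (19.5%, against 9.44% of the promoters of genes tested). The AP-1 site, TGACTCA, stood in 3 of the 41 (7.32%, against 3.5%). These shares were not tested, and a match of letters is a description of the sequence.

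The serum response element was found in 3 of the 41 promoters, those of Egr2, Egr1 and Dusp5, and in 1.64% of all promoters and 1.1% of those of genes tested. Egr2 and Dusp5 are printed with the element in capitals, from chr20:21054392-21054691, minus strand (Egr2) and chr1:262543524-262543823, plus strand (Dusp5), since Egr2 was among the most changed genes and Dusp5 holds a pair of elements side by side.
Egr2: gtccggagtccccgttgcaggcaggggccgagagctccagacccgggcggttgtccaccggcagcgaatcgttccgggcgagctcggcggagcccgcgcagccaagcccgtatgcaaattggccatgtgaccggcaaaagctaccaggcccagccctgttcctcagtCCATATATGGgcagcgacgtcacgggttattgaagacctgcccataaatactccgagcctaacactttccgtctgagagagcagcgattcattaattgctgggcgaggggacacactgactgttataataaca
Dusp5: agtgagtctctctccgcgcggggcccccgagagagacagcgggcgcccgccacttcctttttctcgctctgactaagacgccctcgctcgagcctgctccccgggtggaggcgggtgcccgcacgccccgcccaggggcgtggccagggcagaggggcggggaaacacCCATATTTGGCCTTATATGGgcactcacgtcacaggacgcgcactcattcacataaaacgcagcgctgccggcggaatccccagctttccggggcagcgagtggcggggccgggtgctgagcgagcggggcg
In Egr2 the element began at base -83. In Dusp5 the elements began at bases -82 and -72. None of the 10 promoters of genes lower in SM held the full cAMP response element or the serum response element.

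Beside the transcription factors, genes that act on signalling and at synapses were higher in SM. Of 34 listed activity-induced effector genes, 22 were tested and 5 were higher, with a median difference of 0.20. An unadjusted p under 0.05 was reached by 13 of the 22. Over all genes tested, 0.581% were higher in SM and 8.59% had such a p. Arc was joined by Ptgs2, which encodes the inducible prostaglandin synthase COX-2, with levels of 8.10 to 8.73 in SM (median 8.37) and 7.09 to 8.24 in MS (median 7.29). Its difference of 0.90 (SE 0.17, limma's adjusted p = 0.0191) was larger on slide 1 (1.17) than on slide 2 (0.60). Rgs2, which speeds the turning off of G proteins, was bright on every array, at 11.75 to 11.88 in SM and 11.17 to 11.68 in MS, with no overlap (difference 0.45, limma's adjusted p = 0.0129). Sik1, a kinase that restrains the coactivators of CREB, and Gadd45g, a stress-responsive gene, differed by 0.55 and 0.68 (limma's adjusted p = 0.0324 and 0.0419). Crem, which gives rise to an inducible repressor of cAMP-driven transcription, had a difference of 0.44 (95% interval 0.14 to 0.73) and did not pass, but without SM sample 11 it stood at 0.55 with limma's adjusted p = 0.0279.

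Among 10 measured phosphatases and inhibitors of the MAP kinase pathway, 2 were higher in SM and the median difference was 0.13. The share higher in SM over all genes tested was 0.581%. Dusp1, a phosphatase that inactivates MAP kinases, had levels of 9.86 to 10.43 in SM (median 10.05) and 8.88 to 9.73 in MS (median 9.04). The groups did not overlap, and the difference was 0.95 (SE 0.13, limma's adjusted p = 0.00231), or 1.93-fold. Dusp5, which acts on ERK in the nucleus, was dimmer, at 5.38 to 6.28 in SM and 4.74 to 5.32 in MS, and differed by 0.64 (SE 0.13, limma's adjusted p = 0.0324). Dusp6 had a difference of 0.40 (95% interval 0.19 to 0.61) that missed the threshold. It passed with slide as a term (0.42, limma's adjusted p = 0.0443) and without MS sample 7 (0.46, limma's adjusted p = 0.0210).

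The clock, glucocorticoid and immediate early lists share Per1 or Nfil3, so that their counts are not separate evidence. Of 11 clock genes tested, 3 were higher in SM, namely Nfil3, Per1 and Per2, against 0.581% of all genes tested. The median difference of the 11 was 0.12. Nfil3, a repressor that competes at the sites of clock activators, had levels of 7.71 to 8.02 in SM (median 7.92) and 6.32 to 7.40 in MS (median 7.06). Per1, a repressor of the circadian feedback loop, was at 9.71 to 9.95 in SM (median 9.78) and at 9.00 to 9.69 in MS (median 9.18), a difference of 0.58 (SE 0.10, limma's adjusted p = 0.00858). Per2 differed by 0.50 (SE 0.08, limma's adjusted p = 0.00858), with 5 of 6 SM arrays above every MS array. Cry1, the partner of Per proteins, had a difference of 0.32 (95% interval 0.16 to 0.48) and did not pass, except, among the fits with an array left out, without SM sample 5 (0.36, limma's adjusted p = 0.0350).

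Of 16 measured genes that respond to glucocorticoids, Per1 and Sgk1 were higher in SM, 14 had differences above 0, and the median was 0.26. In this list 8 of 16 genes had an unadjusted p under 0.05. Over all genes tested, 0.581% were higher in SM and 48.5% of differences were above 0. Sgk1, a kinase named for its induction by serum and glucocorticoids, had levels of 10.79 to 11.05 in SM (median 10.96) and 10.21 to 10.60 in MS (median 10.44). These did not overlap, and the difference was 0.51 (SE 0.07, limma's adjusted p = 0.00321). Klf9 and Fkbp5, which are induced by the same hormones, had differences of 0.36 (95% interval 0.18 to 0.55) and 0.35 (0.16 to 0.55) and missed the threshold, although every SM array lay above every MS array for Klf9. Without MS sample 7, Fkbp5 stood at 0.41 with limma's adjusted p = 0.0426. Among 12 heat shock proteins, Dnajb5, a co-chaperone, was higher by 0.59 (SE 0.11, limma's adjusted p = 0.0135), all 12 differences were above 0, and the median was 0.11. None of 18 genes of the unfolded protein response and none of 15 antioxidant and metallothionein genes passed limma's test, with medians of 0.09 and 7.47e-04 and 1 gene in each list at an unadjusted p under 0.05, which 8.59% of all genes tested had.

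The neuropeptide genes that the study set out to follow passed no test between recent and month-old METH. Crh, which encodes corticotropin-releasing hormone, had levels of 4.97 to 6.01 in SM (median 5.80) and 5.38 to 6.22 in MS (median 5.91). Its difference was -0.13 (95% interval -0.47 to 0.22, limma's adjusted p = 0.928). Cartpt, the precursor of the CART peptides, was at 10.39 to 10.52 in SM (median 10.45) and at 9.78 to 10.65 in MS (median 10.27), a difference of 0.17 (-0.06 to 0.40, limma's adjusted p = 0.774). Its SM arrays lay within the range of the MS arrays. Avp, which encodes vasopressin, was spread widely, from 5.96 to 8.54 in SM (median 7.38) and from 5.69 to 7.48 in MS (median 6.24). Its difference of 0.77 (0.01 to 1.54) did not pass over the 13 arrays (limma's adjusted p = 0.559). On slide 2 alone it was 0.93 with limma's adjusted p = 0.0214, and on slide 1 alone 0.58 with 1.00. The SS levels of these genes were lower, at a median of 4.87 for Crh, 7.87 for Cartpt and 4.82 for Avp.

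Of 32 neuropeptide precursors tested, 2 were higher in SM and none lower, with a median difference of 0.04. An unadjusted p under 0.05 was reached by 11 of the 32, with differences of both signs. Such a p was reached by 8.59% of all genes tested, and 0.581% were higher in SM. Tac1, the precursor of substance P that medium spiny neurons of the direct pathway express, was at 12.05 to 12.32 in SM (median 12.13) and at 11.71 to 11.87 in MS (median 11.80). The groups did not overlap, although the difference of 0.37 (SE 0.07, limma's adjusted p = 0.0135) was only 1.30-fold. Nmu, the precursor of neuromedin U, differed by 0.54 (SE 0.11, limma's adjusted p = 0.0335), with SM at 6.54 to 7.27 and MS at 6.24 to 6.75, while all SS arrays were far above both, at 8.57 to 9.48. Among 14 peptide receptors and binding proteins, Sstr2, a somatostatin receptor, and Crhbp, which binds Crh and limits its action, were higher in SM by 0.57 (SE 0.10, limma's adjusted p = 0.0135) and 0.48 (SE 0.10, limma's adjusted p = 0.0370). With slide as a term, Crhbp had limma's adjusted p = 0.0535 and was not called. The median difference of the 14 was -0.0056. Avpr1a, a vasopressin receptor, was detected on 2 SM and 4 MS arrays and had a difference of -0.04 (95% interval -0.24 to 0.15).

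Enzymes that write DNA methylation passed no test. Dnmt1, which maintains methylation, had a difference of -0.13 (95% interval -0.29 to 0.03). The methyltransferases Dnmt3a and Dnmt3b, which set new methylation, had differences of 0.16 (-0.36 to 0.68) and -0.01 (-0.24 to 0.21), with levels of Dnmt3a from 7.89 to 9.28 in SM and from 7.63 to 9.31 in MS. Of the 11 genes of this list that were tested, Gadd45g alone was called, higher in SM, as were 0.581% of all genes tested. With slide as a term the limma adjusted p of Gadd45g was 0.0574. Creb1, which encodes CREB, had a difference of -0.09 (-0.28 to 0.10). None of 21 genes of dopamine and cAMP signalling passed limma's test, although 18 of their differences were above 0 and the median was 0.16, with 5 genes at an unadjusted p under 0.05. Over all genes tested, 48.5% of differences were above 0 and 8.59% had such a p. None of 22 glutamate and GABA receptor subunits, 8 histone deacetylases and demethylases or 6 genes of monoamine synthesis and transport passed either, with medians of 0.04, 0.01 and -0.06 and with 3, 1 and 2 genes at an unadjusted p under 0.05.

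Further genes higher in SM fall outside the lists. Cebpb, a bZIP transcription factor of the acute-phase and cytokine response, was at 8.69 to 9.02 in SM (median 8.93) and at 7.88 to 8.31 in MS (median 8.05), and its difference of 0.81 (SE 0.08) had limma's adjusted p = 1.06e-04. The transcription elongation factor Ell2 differed by 0.69 (SE 0.12, limma's adjusted p = 0.00858) and Zfp189, a zinc-finger protein, by 0.55 (SE 0.07, limma's adjusted p = 9.53e-04). Noct, which encodes the rhythmic protein nocturnin, was at 9.64 to 9.87 in SM and 9.04 to 9.43 in MS, with no overlap (difference 0.45). Bcl6, a transcriptional repressor, differed by 0.44. Pkp2, a protein of desmosomes, differed by 0.78 with a wide spread in SM (6.61 to 7.76). Tmem252, a membrane protein gene that was well above background on no MS array, was at least 1.25-fold higher in SM, taking on each MS array the lowest signal among its detected probes as the bound. Tmem252 passed the filter on dim probes through the SM arrays alone. Cebpb, Pkp2, Arc, Ptgs2, Dusp1, Nfil3, Klf10 and the other leading genes were named by size, and Ell2, Zfp189, Noct, Bcl6 and Tmem252 were picked after their values were seen.

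The rest of the 48 were Sorbs2, Ccn2, Hpgd, Lrrc8c, Slitrk6, Fezf2, Rnf125, Pdxk, Pnn, Coq10b, Cd24, Unc50, Ackr3, Ifi47 and Ifi27, also named after their values were seen. Their differences ran from 0.34 (Ackr3) to 0.70 (Ifi47). Ifi47, an interferon-induced gene, was near background, since 5 of 6 SM and 1 of 7 MS arrays detected it. Ifi47 reached the filter on dim probes mainly through the SM arrays, so that its call is no separate support. Hpgd degrades the prostaglandins that Ptgs2 gives rise to, and it differed by 0.48 (SE 0.09, limma's adjusted p = 0.0135). Fezf2, a factor of deep-layer cortical neurons, was higher by 0.45 (SE 0.08, limma's adjusted p = 0.00960), and Nr4a2 also stands in the list of glutamatergic cortex. All 9 tested genes of the glutamatergic cortex list had differences above 0 (48.5% over all genes tested), with a median of 0.12. Their summed intensity was 9593 to 13429 in SM and 6211 to 13471 in MS, so that the groups overlap. In this list 4 of 9 genes had an unadjusted p under 0.05, against 8.59% of all genes tested. Beside Nr4a2 and Fezf2 these were Neurod6 (0.86) and Emx2 (0.25). Of the 15 cortical genes with a probe, 6 were under the filter on dim probes, Slc17a7, Neurod1, Neurod2 and Emx1 among them. The part of adjacent cortex in these results was not tested.

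**Figure D3:**
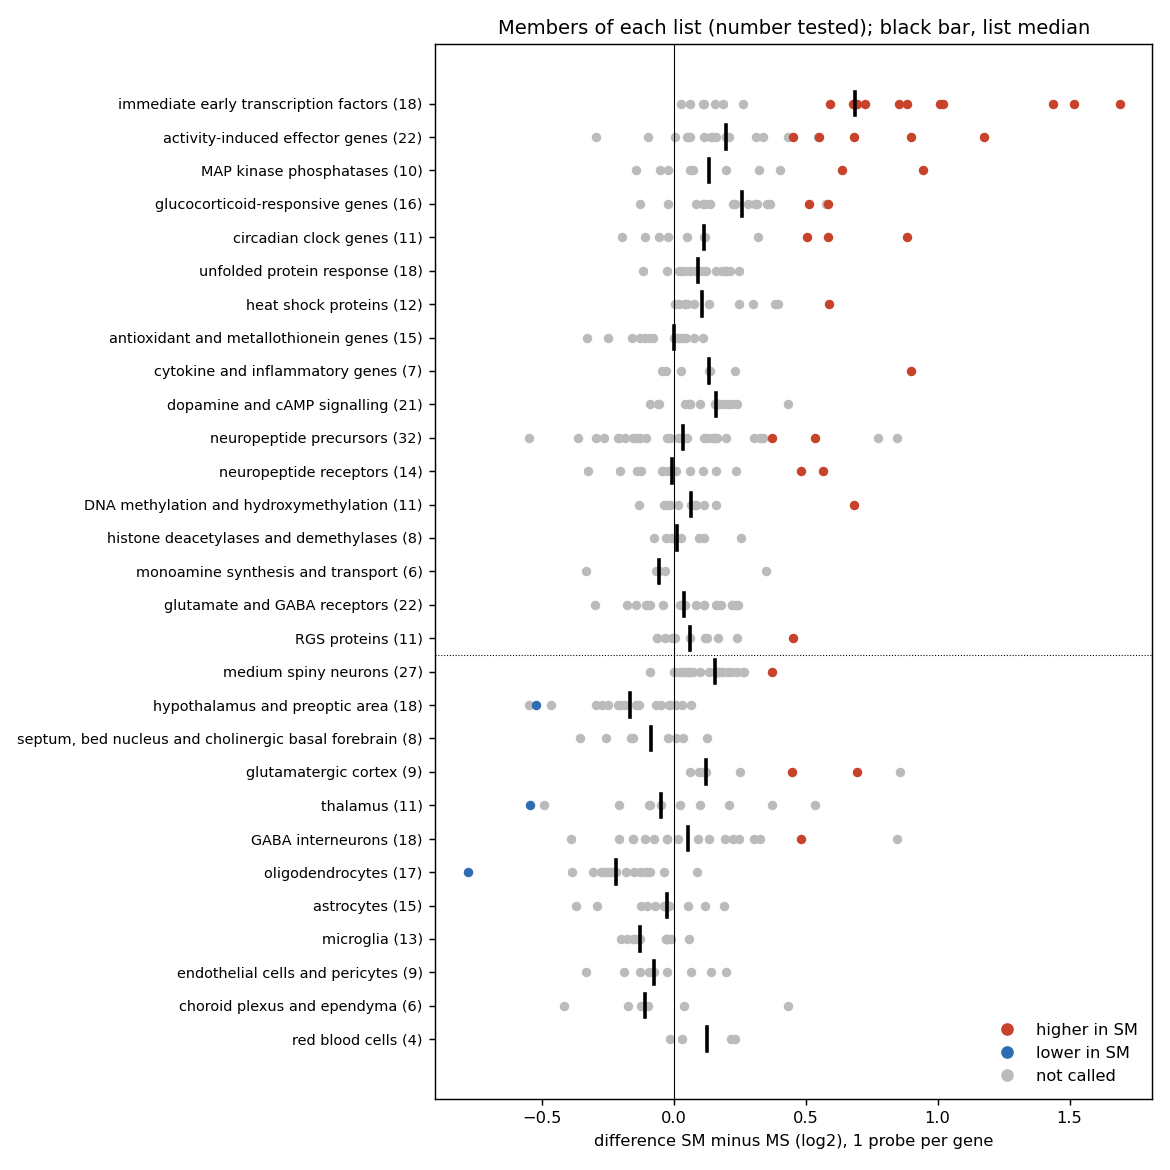
Difference SM minus MS (log2, horizontal axis) of each tested member of 29 gene lists, 1 probe per gene, with the list's median as a black bar and the number tested in parentheses. Red and blue points passed limma's test. The immediate early list has 11 of 18 members called and a median of 0.69, far to the right of the other lists, whose medians lie between -0.22 and 0.26. Cell type marker lists stand under the dotted line. The lists were chosen with earlier results of these data known.

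The genes lower in SM were led by Bcat1, Fam111a, Opalin and Tlr2. Bcat1, which encodes the cytosolic branched-chain aminotransferase, had levels of 7.63 to 8.62 in SM (median 8.23) and 8.78 to 9.64 in MS (median 9.23). The groups did not overlap, and the difference was -1.06 (SE 0.17, limma's adjusted p = 0.00727), so that MS was 2.09-fold higher. Fam111a, a protease gene, was detected on no SM array and on 6 of 7 MS arrays, and was at least 1.51-fold higher in MS (limma's adjusted p = 0.0148). It passed the filter on dim probes through the MS arrays alone, so that its p is no separate support. Fam111a lost the call with no filter, with no background correction and with all 24 arrays in the fit. Opalin, a membrane protein of mature oligodendrocytes, was at 6.93 to 7.82 in SM (median 7.54) and at 8.01 to 8.42 in MS (median 8.19), a difference of -0.78 (SE 0.14, limma's adjusted p = 0.0117). Tlr2, an innate immune receptor, was at 5.69 to 6.02 in SM (median 5.90) and at 6.17 to 6.63 in MS (median 6.48), with a difference of -0.55 (SE 0.08, limma's adjusted p = 0.00443).

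Dim or small differences made up the other lower genes. Gbx2, a homeobox gene of the developing thalamus and midbrain-hindbrain border, was detected on 1 of 6 SM and 7 of 7 MS arrays (difference -0.54, SE 0.10, limma's adjusted p = 0.0135). The size of its difference depended on the processing, from -1.97 to -0.27 over the alternative settings given at the end. Gbx2 passed the filter on dim probes through the MS arrays, so that its p is no separate support. Calcr, the calcitonin receptor, was detected on 4 SM and 7 MS arrays and had a difference of -0.52. Nkx6-2, a homeobox gene of oligodendrocytes, Hs3st1, a heparan sulfate sulfotransferase, and Nefh, the heavy neurofilament, had differences of -0.48, -0.45 and -0.40. Serpinb9, an inhibitor of granzyme B, stood at -0.41 and Snx33, a sorting nexin, at -0.36. For Nkx6-2, Hs3st1 and Snx33 every SM array lay below every MS array, as for 0.279% of all probes tested.

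Few markers of any cell type passed the test. Among all genes tested, 48.5% of differences were above 0, 0.581% were called higher and 0.133% lower in SM, and 8.59% had an unadjusted p under 0.05. Of 17 oligodendrocyte markers tested, 16 had differences below 0 and the median was -0.22, although only Opalin passed the test and 8 had an unadjusted p under 0.05. Cldn11, Sox10 and Mal, genes of myelin or of its cells, had differences of -0.39 (95% interval -0.60 to -0.17), -0.27 (-0.44 to -0.11) and -0.25 (-0.44 to -0.07), and none passed. The summed intensity of the oligodendrocyte list was 16623 to 20776 in SM and 20322 to 23163 in MS. In bulk tissue, fewer cells of a type and less RNA per cell cannot be told apart. Of 27 medium spiny neuron markers, 26 had differences above 0, with a median of 0.16, 1 call (Tac1), 6 at an unadjusted p under 0.05 and summed intensities of 43068 to 55634 in SM and 40823 to 51255 in MS. Among 18 markers of hypothalamus and preoptic area, 15 were below 0 with a median of -0.16, 1 call (Calcr), 6 at an unadjusted p under 0.05 and summed intensities of 6750 to 8105 in SM and 7238 to 9716 in MS. Of the 26 hypothalamic genes with a probe, 8 were under the filter on dim probes, Hcrt, Sim1 and Nkx2-1 among them. Pmch, Pomc, Agrp and Oxt, as specific to hypothalamic neurons, were tested and had differences of -0.21, -0.13, 0.03 and -0.01 (SE 0.49 for Oxt). Gal, Trh, Ghrh and Gnrh1, also peptide genes of this list, stood at -0.55, -0.29, -0.19 and -0.14.

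The thalamic list had a median of -0.05 over 11 genes, with Gbx2 called, and Slc17a6, a vesicular glutamate transporter of subcortical neurons, at -0.49 (95% interval -0.73 to -0.25, limma's adjusted p = 0.0626) and 4 genes at an unadjusted p under 0.05. Slc17a6 passed with slide as a term (-0.50, limma's adjusted p = 0.0423) and without SM sample 14 (-0.59, limma's adjusted p = 0.00903). Of 13 microglial markers, 12 were below 0 (median -0.13), and none passed limma's test or had an unadjusted p under 0.05. Of 15 astrocyte markers (median -0.03) none passed limma's test and 1 had an unadjusted p under 0.05, Gfap, the astrocyte filament, at -0.37. No member of the septal, choroid plexus, endothelial or red blood cell lists passed limma's test. At an unadjusted p under 0.05 there were 0, 1, 1 and 0 (8.59% over all genes tested). The medians of these lists were -0.09, -0.11, -0.07 and 0.13. Of 18 interneuron markers, 11 RGS proteins and 7 cytokine and inflammatory genes, 1 each was called (Crhbp, Rgs2 and Ptgs2), with medians of 0.05, 0.06 and 0.13 and 5, 2 and 1 genes at an unadjusted p under 0.05. The shares over all genes tested were 0.581% called higher and 0.133% called lower in SM, with 48.5% of differences above 0. Ttr, made in the choroid plexus, was at 4.52 to 7.10 in SM, the highest being SM sample 14, and at 4.63 to 5.04 in MS. The median differences of the medium spiny neuron and oligodendrocyte lists thus had opposite signs, and the part of dissection and cell makeup in the results above was not tested.

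The levels in SS and MM place the genes called, as a description with no test. In MM, where METH was also given 2 h before death, the median was nearer to SM than to MS for 32 of the 48 genes higher in SM (66.7%), against 48.1% of all genes with SM above MS. Among the 18 immediate early genes tested it was nearer to SM for 16 (88.9%). Nr4a3 had a median of 8.49 in MM and 6.68 in SS, Fos of 8.13 and 6.05, and Npas4 of 5.63 and 4.70. In these genes the SS median lay below that of MS. For Junb the SS median of 8.54 also lay by the MS median of 8.53. SS, with no METH, also had its median nearer to SM for 28 of the 48 genes (58.3%, against 53% of all genes with SM above MS) and for 9 of the 18 immediate early genes. Of the 48 genes, 9 had the SS median below that of MS (18.8%, against 37.6% of all genes with SM above MS). Another 23 had it between (47.9%, against 15.9%), and 16 (33.3%) had it above the SM median, against 47.8%.

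The 48 genes were picked for a large gap between SM and MS, which leaves more room for an SS median between. The shares for the place of the SS median were thus partly set by that choice. The 16 genes with an SS median above that of SM are described by their levels alone. Klf10 had a median of 7.20 in SS, 6.62 in SM and 5.87 in MS, and Tac1 of 12.64, 12.13 and 11.80. Nr4a2, Ier5, Sstr2 and Dnajb5 also had SS medians of 5.94, 7.13, 7.81 and 8.74, above their SM medians of 5.83, 6.92, 7.52 and 8.34. Dusp1 and Arc lay between, with SS medians of 9.65 and 7.73. Among the lower genes, Bcat1 had a median of 9.19 in MM, close to MS, whereas Opalin had 7.60 and Tlr2 6.07, close to SM. For the 11 genes lower in SM the MM median was nearer to SM for 6 (54.5%), against 47.1% of all genes with SM below MS.

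**Figure D4:**
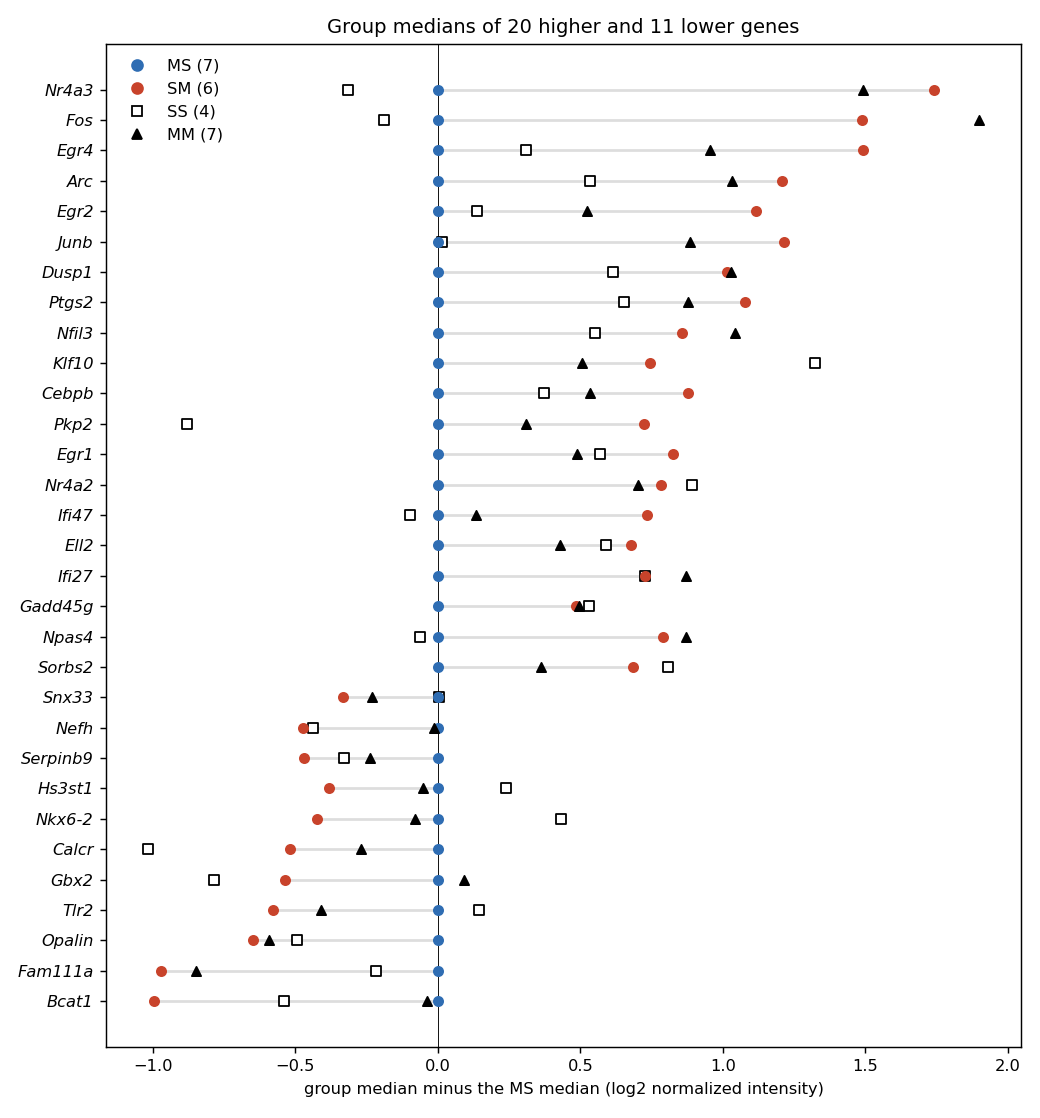
Median of each group less the MS median (log2 normalized intensity, horizontal axis) for the 20 genes with the largest positive differences and the 11 genes lower in SM. Blue circles are MS, red circles SM, open squares SS and black triangles MM. SS lies by MS for Nr4a3, Fos, Junb and Npas4 and beyond SM for Klf10, Nr4a2 and Sorbs2, and lies under the SM circle for Ifi27.

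The arrays lay on 2 slides, each with both groups, and the direction of all 59 genes was the same on each. On slide 1, with 3 SM and 4 MS arrays, Nr4a3, Fos and Egr4 differed by 1.65, 1.61 and 1.39, and on slide 2, with 3 of each, by 1.76, 1.43 and 1.49. Since the genes were called on both slides together, this is a description. No probe passed an adjusted p under 0.05 from limma on slide 1 alone, where 489 had an unadjusted p under 0.05, while 52 were higher and 34 lower on slide 2 alone. With slide as a term in the model, 57 were higher and 19 lower, and Crhbp, Gadd45g, Unc50, Cd24, Serpinb9, Nefh and Snx33 lost the call, with limma's adjusted p between 0.0535 and 0.0658. Without MS sample 3 and SM sample 11, 88 were higher and 46 lower.

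Calls near the threshold depended on which arrays were used. With each of the 13 arrays left out in turn, 29 of the 48 genes higher in SM were called every time, among them Nr4a3, Fos, Egr4, Arc, Egr2, Junb, Dusp1, Cebpb, Per1, Per2, Sgk1 and Tac1. The other 19 lost the call at least once, and so did 6 of the 11 genes lower in SM, whereas Bcat1, Fam111a, Opalin, Tlr2 and Gbx2 kept it. Egr1 lost it with 10 of the 13 arrays left out, with differences of 0.65 to 0.85. Without MS sample 7 the difference of Egr1 was 0.85 with limma's adjusted p = 8.33e-04. Ptgs2 lost the call without SM sample 5 and without MS sample 16, with differences of 0.83 to 1.02 over the 13 fits. Sik1, Dusp5, Gadd45g, Nmu and Crhbp lost it with 7 to 10 arrays, and Calcr, Nkx6-2, Hs3st1, Serpinb9, Nefh and Snx33 with 5 to 11, and no sign changed. Genes called with every array left out could still lose the call under other processing. With the authors' values it was kept by Nr4a3, Fos and Egr4 and lost by Arc, Egr2, Junb, Dusp1, Cebpb, Per1, Per2, Sgk1 and Tac1. Arc also lost it with no background correction, and Arc and Egr2 with no filter.

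**Figure D5:**
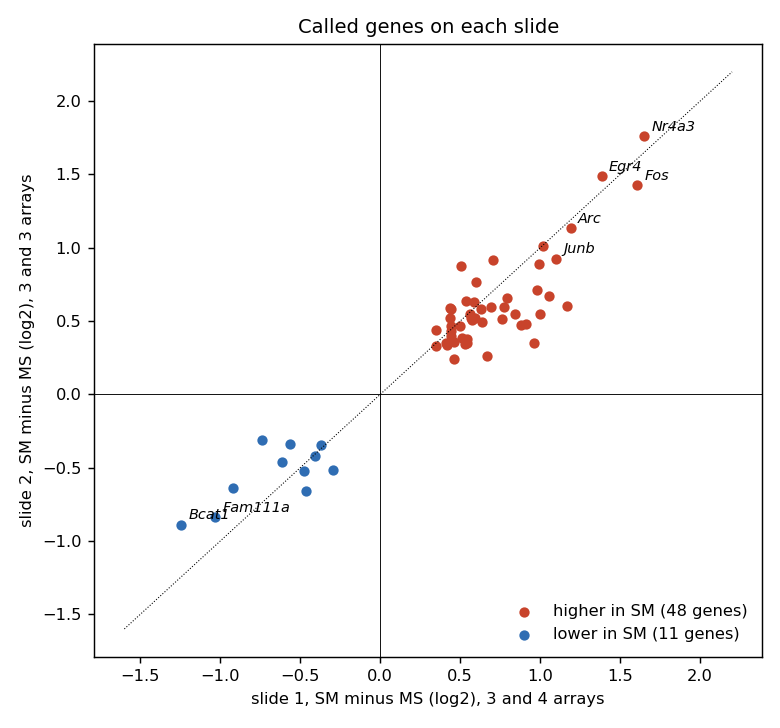
Difference SM minus MS (log2) of the 59 genes called, on slide 1 (horizontal axis, 3 SM and 4 MS arrays) and slide 2 (vertical axis, 3 and 3), with the line of equal values dotted. All 48 genes higher (red) and all 11 lower (blue) in SM have the same sign on each slide.

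Probes without a gene name in the annotation used here are part of the result. The smallest p of all belonged to ILMN_1376762, at 6.24 to 6.80 in SM (median 6.54) and 4.94 to 5.50 in MS (median 5.23), with a difference of 1.29 (SE 0.10, limma's adjusted p = 1.03e-05) and an MM median of 6.31. The most negative difference belonged to ILMN_1373601, at -1.63 (SE 0.29, limma's adjusted p = 0.0135) and 1 SM array, sample 11, within the MS range. Of the probes called, 12 of the 60 higher and 11 of the 22 lower in SM carry no symbol. The largest difference of all, 2.15 for ILMN_1351707, met the study's 1.8-fold rule but had limma's adjusted p = 0.173. Without SM sample 14, its lowest SM array, the difference was 2.71 with limma's adjusted p = 0.0166. Ccn3, a matricellular protein gene, also met that rule, with a difference of 1.00 and limma's adjusted p = 0.279, and without SM sample 11 it stood at 1.33 with 0.0119. The SM arrays of these probes ran from 6.05 to 9.72 and from 5.26 to 7.98. Neurod6, a cortical transcription factor, and Cck, the precursor of cholecystokinin, likewise had differences of 0.86 and 0.85 with limma's adjusted p = 0.283 and 0.244. Of these, Ccn3 and the probes with no symbol were picked after their values were seen.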

How the data were processed

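Total RNA from the NAc was labelled with biotin and hybridised to 1-colour Illumina BeadChips. The authors read the arrays with BeadStudio, of which no version is given in the sources used here, and deposited intensities that are background-subtracted within each array and not scaled between arrays. The deposited detection columns, headed as p-values, hold scores that behave as 1 minus the detection p and stand in another row order than the intensities (Spearman correlation -0.00699 to 2.47e-04 on the 24 arrays), so that they were paired with the intensities again by rank on each array. A further deposited table holds log2 intensities with a floor at 1, centred by the authors on the median of each probe (largest deviation 2.32e-06 from this rule), and served as an alternative. In it, 26.1% of intensities were under 1.

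All 24 arrays were corrected by normexp, given an offset of 16, quantile-normalized and put on the log2 scale with neqc of limma 3.58.1 in R 4.3.3. Probes were kept where 6 or more of the 13 SM and MS arrays had a detection p under 0.05, and these 13 were fitted with lmFit and eBayes, with Benjamini-Hochberg adjustment over 11818 probes. The array test of the study is not named in the sources used here, and its rule of 1.8-fold and p under 0.01 was counted too. Exact permutation tests used all 1716 assignments of the 13 samples to 6 and 7. Of 22523 probes, 13793 have 1 symbol and 8730 none in the platform annotation, and 13752 matched a RefSeq gene. Of a gene's probes the brightest was used. The files were checked for identical arrays, of which there were 0, and the fit was tested on simulated data. Figures and promoter searches used Python 3.11.15, numpy 2.4.6 and matplotlib 3.10.9.

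Named genes are the 12 with the largest difference in each direction, filled up by p where fewer passed, the genes the study names, up to 4 of each of 29 lists by p, and all tested immediate early genes. The members and lists were chosen with earlier results of these data known. Alternatives changed background correction, normalization, filter, source of values, slide, weights, moderation and arrays. Crhr1, Crhr2 and Tet1, Tet2 and Tet3 are not among the symbols used, and Avpr1b was under the filter. The number of arrays limits the precision.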

Additional observations from a re-analysis of the deposited data

Results flagged for a closer look

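Among 198 groups of 6 or 7 arrays for the genes and probes named, 20 held an array whose gap to the nearest other exceeded Dixon's limit. Chance flags about 1 in 20 groups. All values are log2 normalized intensities.

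MS sample 7 stood above the other MS arrays for Nr4a3 (7.82, nearest 7.00), Per2 (9.39, nearest 9.00), Nmu (6.75, nearest 6.35), Dnmt3a (9.31, nearest 8.16) and Gfap (11.24, nearest 10.70), and below them for Myc (6.16, nearest 6.62). MS sample 3 stood below the other MS arrays for Srf (9.72, nearest 10.04) and Dnmt1 (8.43, nearest 8.66) and above them for Vgf (6.91, nearest 6.67). MS sample 12 stood above the others for Sorbs2 (9.73, nearest 9.18).

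SM sample 11 stood above the other SM arrays for Rnf125 (6.79, nearest 6.41), Fkbp5 (10.35, nearest 9.99), Dnajb1 (11.08, nearest 10.56) and the probe ILMN_1373601 (7.19, nearest 5.66). SM sample 14 stood above them for Coq10b (9.66, nearest 9.44), Serpinb9 (7.64, nearest 7.40) and Ttr (7.10, nearest 5.48), and below them for the probe ILMN_1351707 (6.05, nearest 9.10). SM sample 2 was the highest for Unc50 (10.19, nearest 9.94) and the lowest for Srf (10.03, nearest 10.24).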

How the results depend on the processing

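Over 29 alternatives, the 62 genes and probes named that passed the test gave 1780 values, of which 1304 stayed past the threshold, 476 did not and 0 changed sign. Against 60 probes higher and 22 lower in SM, the counts were 34 and 9 with no background correction, 39 and 10 with no filter, 120 and 71 with array weights, 48 and 11 with scaling to 1 median, 50 and 11 with 1 probe per gene, 52 and 34 on slide 2 alone, 0 and 0 on slide 1 alone (489 probes at an unadjusted p under 0.05 in limma), 88 and 46 without MS sample 3 and SM sample 11, and 4 and 0 with the authors' log2 values (527 at an unadjusted p under 0.05, median of all probes 0.10). The share of calls higher in SM was 73.2%, against 62.8% with array weights, 60.5% on slide 2 and 100% with the authors' values. With each array left out the counts ran from 38 (without SM sample 17) to 71 higher and from 11 (without MS sample 23) to 34 lower (without SM sample 11), and the count at 1.8-fold, 24, from 20 to 27. That count was 45 with no background correction, 14 with an offset of 50, 52 with the authors' values and 15 with 1 probe per gene. Of 37 genes and probes that missed the threshold, 12 passed it in 27 values in all (Slc17a6, Avp, Dusp6, Klf9, Fkbp5, Cry1, Crem, Vgf, Lhx6, Rps9, Ccn3 and ILMN_1351707), and the sign changed 19 times. Crh stood at 0.068 with array weights and 0.085 without MS sample 3 and SM sample 11, and ran from -0.20 to 0.019 (without SM sample 11) with each array left out. Avpr1a stood at 0.015 on slide 1 and ran from -0.090 to 0.0077 (without SM sample 11). Dnmt3a stood at -0.080 on slide 2 and ran from -0.035 (without SM sample 2) to 0.35. Dnmt3b stood at 0.082 with the authors' values and 0.085 on slide 2 and ran from -0.060 to 0.046, above 0 without SM sample 5, MS sample 7 or MS sample 12. Jun stood at -0.060 on slide 2 and -0.036 without MS sample 3 and SM sample 11, and Klf6 at -0.054 on slide 2. Klf2 stood at -0.067 on slide 1 and ran from -0.036 (without MS sample 9) to 0.097, and Ttr stood at -0.15 on slide 1. The causes were not tested. The list medians of antioxidant genes and of peptide receptors changed sign in 11 and 14 alternatives, and that of microglia in 1, slide 1 alone. Those of thalamus and of histone deacetylases and demethylases changed sign in 8 and 6, and those of DNA methylation and astrocytes in 2 each. The medians of monoamine genes, of glutamate and GABA receptor subunits and of endothelial cells changed sign in 1 each. No paired analysis was possible because the sample numbers run over all groups, so that the groups share none.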
